A study of Mus musculus with 20 samples.

Results

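The mitochondrial genome of the mouse encodes 13 mRNAs, and 7 of them were counted in large numbers in these libraries: mt-Nd1, mt-Nd2, mt-Nd4, mt-Nd5 and mt-Nd6 (complex I), mt-Cytb (complex III) and mt-Co1 (complex IV). They were chosen as the well-counted mitochondrial mRNAs, taken to lack a near-complete nuclear copy, and are 7 of the 46078 genes of the count table. RNA-seq was performed on livers of 20 male mice of at least 9 weeks of age. Calories were restricted throughout, first on a control diet and then on the control or a test diet. The mice were killed 2 days after the second diet began. Cse-/- mice lack the transsulfuration enzyme cystathionine γ-lyase in the whole body, on a mixed 129/C57BL/6 background, and were given food without cysteine (no-Cys, 4 mice), without tryptophan (no-Trp, 3 mice), or no-Trp food together with BSO (4 mice), an inhibitor of glutathione synthesis. Control mice, labelled WT in the deposit and listed as heterozygous (Cse+/-) by the study (KO and Het in the plots stand for Cse-/- and Cse+/-), were on control (2 mice), no-Cys (4 mice) or no-Trp food (3 mice). Each diet was a defined amino acid diet (5CC7) with or without the named amino acid, and no Cse-/- group on the control diet was analysed here.

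Mitochondrial DNA is transcribed from both strands into long precursors by a dedicated polymerase, and the tRNAs that lie between the mRNAs mark where these precursors are cut. All mitochondrial mRNAs encode subunits of the oxidative phosphorylation complexes, which also contain many nuclear-encoded subunits, so that the assembly of a complex draws on both genomes. The liver is rich in mitochondria, and mitochondrial transcripts form a large part of its poly(A) RNA. Of the mRNAs described here, mt-Nd6 alone is encoded on the light strand, and it is known to carry little or no poly(A) tail.

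The genes lie on the mitochondrial chromosome of GRCm38 at chrM:2751-3707 (mt-Nd1), chrM:3914-4951 (mt-Nd2), chrM:5328-6872 (mt-Co1), chrM:10167-11544 (mt-Nd4), chrM:11742-13565 (mt-Nd5) and chrM:14145-15288 (mt-Cytb) on the plus strand, and at chrM:13552-14070 (mt-Nd6) on the minus strand. Each is a single exon without an intron. The libraries were made from poly(A)-selected RNA, and tails bear on mitochondrial reading frames in a second way, since some of them end inside the stop codon, which the tail then completes. The last 15 bases of each annotated transcript show which do so, with the stop codon or its encoded part in capitals (GENCODE mouse transcripts, GRCm38, 5′ to 3′ on the coding strand).
mt-Nd1: ccaccatacataTAG
mt-Nd2: caactaattaccTAG
mt-Nd4: caggcctgacaataT
mt-Nd5: attaatctcgagTAA
mt-Nd6: attactcgagatTAA
mt-Cytb: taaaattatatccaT
mt-Co1: gtaaaagtaaaaTAA
The annotated mt-Nd4 and mt-Cytb have 1 base more than a whole number of codons and end on a lone T, whereas the other 5 end on a whole TAA or TAG. The ends of mt-Nd5 and mt-Nd6 face each other on opposite strands and share 14 bases, chrM:13552-13565. The first 7 bases of mt-Nd4, chrM:10167-10173, are also the last of mt-Nd4l. The kit that the study names (NEBNext Ultra, in the version given by its catalogue number) does not mark strand, so that reads within those 14 bases cannot be told apart by gene. Heavy-strand RNA antisense to any part of mt-Nd6 likewise cannot be told from mt-Nd6, which bears on every level of mt-Nd6 below.

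Copies of mitochondrial DNA in the nuclear genome can take reads from the mitochondrial genes, because a read that fits 2 places equally well is often counted at neither. The share of the 61-base words of each gene, the length of the reads, that is also found in an annotated nuclear transcript was 0% for mt-Nd1, mt-Nd6 and mt-Cytb, 4.14% for mt-Nd5 and 7.06% for mt-Nd2. It was 46.1% for mt-Co1 and 61.9% for mt-Nd4, so that these were free of identical nuclear sequence only in part. The copy of mt-Nd4 is Gm28439 (chr1:24611535-24612410), which is 100% identical over 63.6% of the gene. By contrast, mt-Co2, mt-Co3, mt-Atp6, mt-Nd3 and mt-Nd4l shared between 97.9% and 100% of their words, most with pseudogenes of the same stretch of chromosome 1. With up to 2 mismatches allowed, the share was 89.97% for mt-Co1, 37.0% for mt-Nd6, 29.1% for mt-Nd2, 26.1% for mt-Nd5, 10.3% for mt-Cytb, 61.9% for mt-Nd4 and 0% for mt-Nd1.

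The central 61 bases of 3 members and of mt-Co2 are shown beside their most similar annotated nuclear copy, since they show what a read can and cannot tell apart. Capitals mark bases that differ between the gene and the copy.
mt-Cytb (chrM:14686-14746, plus strand): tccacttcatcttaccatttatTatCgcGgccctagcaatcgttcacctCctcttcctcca
Gm11410 (chr4:80003989-80005131): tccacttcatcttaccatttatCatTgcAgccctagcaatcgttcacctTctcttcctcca
mt-Nd6 (chrM:13781-13841, minus strand): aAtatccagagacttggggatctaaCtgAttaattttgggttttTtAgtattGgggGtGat
Gm11408 (chr4:80003396-80003914): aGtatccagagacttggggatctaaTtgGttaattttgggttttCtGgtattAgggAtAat
mt-Co1 (chrM:6070-6130, plus strand): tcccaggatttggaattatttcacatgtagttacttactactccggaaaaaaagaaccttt
Gm13340 (chr2:22588103-22589647): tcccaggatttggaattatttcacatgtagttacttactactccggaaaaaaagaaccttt
mt-Co2 (chrM:7324-7384, plus strand): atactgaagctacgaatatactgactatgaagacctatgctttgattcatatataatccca
Gm28661 (chr1:24614885-24615565): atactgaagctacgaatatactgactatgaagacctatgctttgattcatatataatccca
In these windows mt-Cytb differed from its copy at 4 bases and mt-Nd6 at 8, while mt-Co1 and mt-Co2 differed at 0. Over the whole gene the identity was 92.8% for mt-Cytb, 93.6% for mt-Nd6 and 97.6% for mt-Co1, each over a copy of full or nearly full length, so that the lack of a near-complete copy holds for these genes only in the sense of identical words. mt-Co1 had 144734 to 586080 counts per library and its copy Gm13340 had 322 to 3112. mt-Co2 had 97 to 1560 counts and Gm28661 had 68 to 845. The levels of mt-Co2, mt-Co3, mt-Atp6, mt-Nd3 and mt-Nd4l are not used below. mt-Atp8 was also nearly absent, with 0 to 24 counts, although 0% of its words were found in an annotated transcript. What set the low counts of these 6 mRNAs was not tested.

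**Figure D1:**
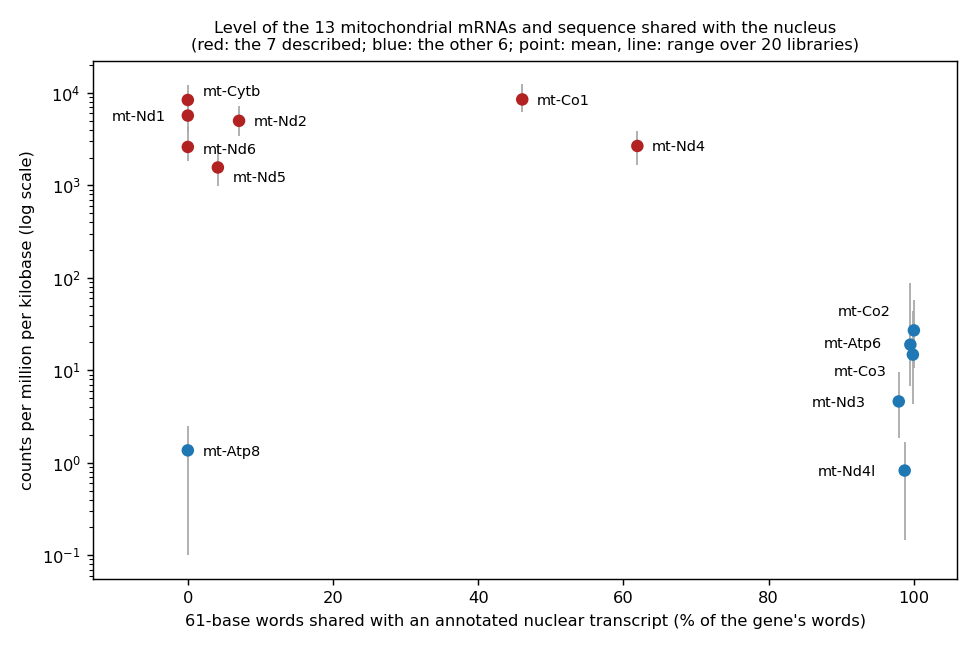
Level of each of the 13 mitochondrial mRNAs (CPM per kilobase, log scale) against the percentage of its 61-base words found in an annotated nuclear transcript. Points are means and lines the range over 20 libraries (mt-Atp8, whose lowest value is 0, has its line cut off there on the log axis). Mean levels are 1561 or more for the 7 mRNAs described and 27.0 or less for the other 6.

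Levels were compared between genes as CPM (counts-per-million) per kilobase of transcript. mt-Co1, a catalytic subunit of cytochrome c oxidase, stood at 8495 ± 1864 (mean ± SD over 20 libraries) and mt-Cytb, a haem-carrying subunit of complex III, at 8381 ± 1710.1. Pooled over all groups, these did not differ beyond their spread, as mt-Co1 was the higher in 8 of 20 libraries. The log2 ratio of mt-Co1 to mt-Cytb counts differed between groups, however. Its mean was 0.69 in Cse+/- and 0.63 in Cse-/- no-Cys livers and 0.24 to 0.37 in the other groups, with overlap between libraries. mt-Nd1 (5686 ± 1408) and mt-Nd2 (4989.8 ± 1236), membrane subunits of complex I, followed, and their order held in 19 of 20 libraries. mt-Nd4 (2667 ± 628) and the light-strand mt-Nd6 (2603 ± 672) did not differ beyond their spread either, with mt-Nd4 higher in 12 of 20. mt-Nd5, the longest of these mRNAs, was the lowest at 1561 ± 407, below mt-Nd6 in 20 of 20 libraries. This order holds only per length. With only the words that no annotated nuclear transcript shares counted as length, mean CPM per kilobase was 16385 for mt-Co1 against 8845 for mt-Cytb, and 7322 for mt-Nd4 against 2943 for mt-Nd6 and 6066 for mt-Nd1, so that the place of mt-Co1 and mt-Nd4 depends on how shared words are treated.

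Total counts per library ranged from 11785740 to 57986121, and the 7 mRNAs took 3.14% to 5.25% of them, with at least 12989 counts for each mRNA in each library. Cth, the gene that encodes cystathionine γ-lyase, was at 88.4 to 332 CPM in the 9 Cse+/- libraries and at 6.37 to 14.4 CPM in the 11 Cse-/- libraries, so that the Cse-/- libraries lay apart from the others. These levels do not tell Cse+/- from wild type. The 7 hepatocyte markers summed to 40896 CPM or more in every library. That sum was lower in Cse-/- no-Cys livers (40896 to 67359 CPM) than in Cse+/- no-Cys livers (84926 to 109204 CPM), although the markers went both ways, with 4 of 7 called lower and 1 higher (log2 fold changes of -1.26 to 0.58). Between Cse+/- no-Trp livers (74118 to 85094 CPM) and the control livers (110319 and 111735 CPM) the sum did not overlap either, nor did it between Cse+/- no-Cys and control livers. It was also lower without overlap in Cse-/- no-Trp livers (63999 to 70343 CPM) than in Cse+/- no-Trp livers. The 5 red cell markers summed to 69.1 to 114 CPM in Cse-/- no-Cys livers and to 200.7 to 406 CPM in Cse+/- no-Cys livers. On the no-Trp diet they summed to 119 to 184 CPM in Cse-/- and 211 to 258 CPM in Cse+/- livers. The summed level of 2 nuclear-retained RNAs, Malat1 and Neat1, was 946.7 to 1386 CPM in Cse-/- no-Cys livers and 669 to 859 CPM in Cse+/- no-Cys livers, and 1 of them was called higher. In other lists, 1 of 5 endothelial markers was called higher, and 1 of 5 stellate and fibroblast markers and 1 of 4 cholangiocyte markers lower, between these groups. The part of these shifts in the results below was not tested.

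The first comparison sets Cse-/- against Cse+/- livers, both on the no-Cys diet. Without Cse-/- control-diet livers, a difference of genotype already present before the diet cannot be told apart in it from a response to the diet. In Cse-/- livers on the no-Cys diet each of the 7 mRNAs was lower than in Cse+/- livers on the same diet, at 0.531 to 0.713 of the level there. For mt-Nd2, the 4 Cse+/- livers had 7497, 6735, 6286 and 7486 CPM and the 4 Cse-/- livers 3559, 3925, 3732 and 3646 CPM. The groups lay far apart, and mt-Nd2 was at 0.531 of its Cse+/- level, the strongest fall of the 7. mt-Nd1 stood at 6766, 6239, 6247 and 7354 CPM in Cse+/- livers against 3887, 4686, 4479 and 3610.1 CPM in Cse-/- livers. mt-Nd4, in the proton-pumping arm of complex I, had 4416, 4230.5, 3611 and 4753 CPM and then 2268, 2715, 2756 and 2736 CPM. In neither gene did any Cse-/- liver reach the lowest Cse+/- liver, although one Cse-/- liver (mouse av05) was well below the other 3 for mt-Nd4. mt-Nd5, a neighbour of mt-Nd4 in the same arm, had 4859, 3330.4, 3739 and 3318 CPM in Cse+/- livers, with 1 mouse (av01) far above the rest. In Cse-/- livers its values were 2637, 2638, 2416 and 2811 CPM. mt-Nd6 was at 1584, 1254, 1447 and 1596 CPM and at 946, 1166, 1124 and 958 CPM. For mt-Nd6 the gap between the groups was narrow, from 1166 to 1254 CPM.

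The members of complexes III and IV were lower too. mt-Cytb had 11604, 10036, 9578 and 12076 CPM in Cse+/- no-Cys livers and 6531, 7844, 7602 and 7157 CPM in Cse-/- no-Cys livers. mt-Co1 had 19075, 16819, 17367 and 16207 CPM and 10245, 11449, 10220.2 and 13246 CPM. Again no library of one group reached the other. In total, 7 of 7 mRNAs were lower without overlap between the groups, as were 11.2% of the 14759 genes tested. In bulk tissue, fewer mitochondria, fewer copies of their DNA, fewer hepatocytes and less RNA per genome cannot be told apart.

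**Figure D2:**
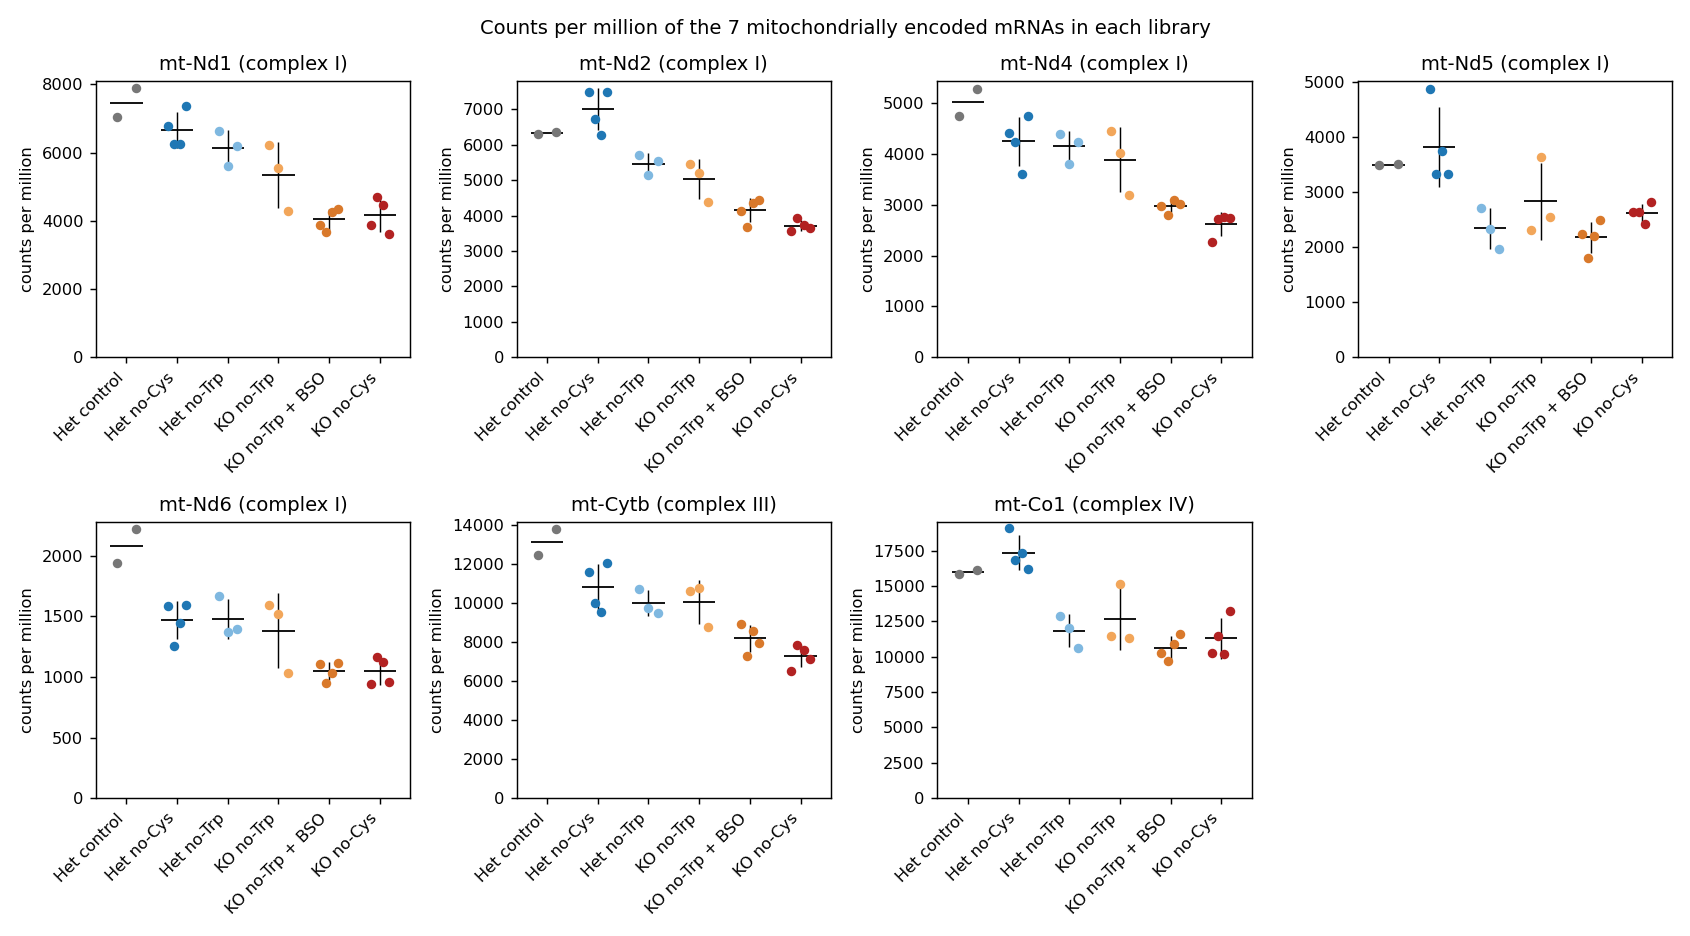
CPM of each mRNA in each of the 20 livers. Points are libraries, horizontal lines group means and vertical lines ± 1 SD (not drawn for the 2 control livers). In every panel the 4 KO (Cse-/-) no-Cys libraries lie below the 4 Het (Cse+/-) no-Cys libraries.

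By edgeR's quasi-likelihood test, 7 of 7 mRNAs fell in this comparison at an adjusted p below 0.05, where 23.8% of all genes tested passed in either direction and 12.2% were lower. The log2 fold changes (± SE) were -0.91 ± 0.095 for mt-Nd2, -0.70 ± 0.11 for mt-Nd4, -0.68 ± 0.12 for mt-Nd1 and -0.62 ± 0.12 for mt-Co1. Those of mt-Cytb, mt-Nd5 and mt-Nd6 were -0.57 ± 0.11, -0.54 ± 0.15 and -0.49 ± 0.13. The median over the 7 was -0.62, beside -0.0093 over all genes. Adjusted p-values ran from 2.75e-06 for mt-Nd2 to 0.0128 for mt-Nd5. Scaling by library totals alone moved the median of all genes to 0.15 and the share of calls that were higher from 48.8% to 77.4%, and mt-Nd6 then missed the threshold (log2 fold change -0.32, adjusted p = 0.0515). Without mouse av01, mt-Nd5 missed it narrowly (-0.40, adjusted p = 0.0504).

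Since the no-Trp diet also withholds an essential amino acid, Cse-/- livers on the 2 diets were compared next. All 7 mRNAs were lower on the no-Cys diet, and 3 of them passed the test: mt-Nd2, mt-Nd4 and mt-Cytb. In all genes, 10.4% passed and 5.35% were lower, and library totals alone moved the share of calls that were higher from 48.6% to 69.7%. mt-Nd4 was at 4444, 4026 and 3189 CPM in the 3 Cse-/- no-Trp livers, above each of the no-Cys values given above, with a log2 fold change of -0.57 ± 0.12 (adjusted p = 0.00549, edgeR). mt-Nd2 was at 5469, 5213 and 4396 CPM on the no-Trp diet, and changed by -0.44 ± 0.10 (adjusted p = 0.0106, edgeR). mt-Cytb was at 10638, 10767 and 8766 CPM, a change of -0.47 ± 0.11 (adjusted p = 0.0142, edgeR). In the same comparison 3 of 7 hepatocyte markers and 3 of 5 red cell markers were called lower and 1 of 2 nuclear-retained RNAs higher, and the red cell sum did not overlap (69.1 to 114 against 119 to 184 CPM), a shift whose part was not tested. The 3 mRNAs were also the only members whose groups did not overlap, a pattern shown by 9.83% of all genes. mt-Nd1 (-0.36, adjusted p = 0.0711) and mt-Nd6 (-0.40, adjusted p = 0.0679) came near the threshold. mt-Co1 (-0.16) and mt-Nd5 (-0.11) lay further from it, and for mt-Nd5 the Cse-/- no-Trp liver of mouse av15 (3626 CPM) stood above both others (2318 and 2538 CPM). The count depended on the few no-Trp livers: it was 1 without mouse av14, which left mt-Nd4, and 5 without mouse av16, and it was 0 when only these 2 groups were fitted.

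BSO blocks the first step of glutathione synthesis, so that the no-Trp diet with BSO pairs a missing amino acid with loss of glutathione while cysteine is supplied. Adding BSO to the no-Trp diet gave 7 of 7 mRNAs with a negative fold change, of which 0 passed after adjustment and 6 had an unadjusted p below 0.05 (edgeR). By p the 7 ranked from 444 (mt-Nd4) to 2045 (mt-Co1) among the 14759 genes tested. In this comparison 0.793% of all genes passed by edgeR. DESeq2 called 2 of the 7, mt-Nd1 and mt-Nd4, and its own share of all genes is not given here. mt-Nd4 was at 2971, 2805, 3089.9 and 3021 CPM with BSO, below each of the 3 livers without it, and was the only member without overlap, beside 6.13% of all genes. Its log2 fold change was -0.39 ± 0.12 (adjusted p = 0.131, edgeR). mt-Nd1 was at 3892, 3679, 4269.9 and 4333 CPM with BSO and 6215, 5535 and 4299.9 CPM without it. One no-Trp liver (mouse av16) thus lay within the BSO range for mt-Nd1, and the fold change was -0.40 ± 0.13 (adjusted p = 0.138, edgeR). The same mouse was the lowest of its group for 6 of the 7 mRNAs, all but mt-Nd5. When it was left out, mt-Nd6 passed the test (-0.58, adjusted p = 0.0412, edgeR). The median over the 7 mRNAs was -0.38, beside -0.0048 over all genes.

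The no-Cys diet and the no-Trp diet with BSO were then set against each other in Cse-/- livers. Of the 7 mRNAs, 0 passed the test by edgeR or DESeq2, and 0 had an unadjusted p below 0.05, where 2.75% of all genes passed. The log2 difference, no-Cys minus no-Trp with BSO, was -0.0021 for mt-Nd6 with a 95% interval of -0.27 to 0.27. For mt-Nd1 it was 0.043 (-0.20 to 0.29) and for mt-Co1 0.089 (-0.15 to 0.33). The most negative was mt-Nd4, -0.18 (-0.41 to 0.048), and its groups did not overlap, a pattern shown in the lower direction by 6.24% of all genes. Of the markers, 3 of 7 for hepatocytes and 1 of 4 for cholangiocytes were called lower here. The most positive was mt-Nd5, 0.27 (-0.041 to 0.58). Comparisons that name the same group, here and below, share its libraries.

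**Figure D3:**
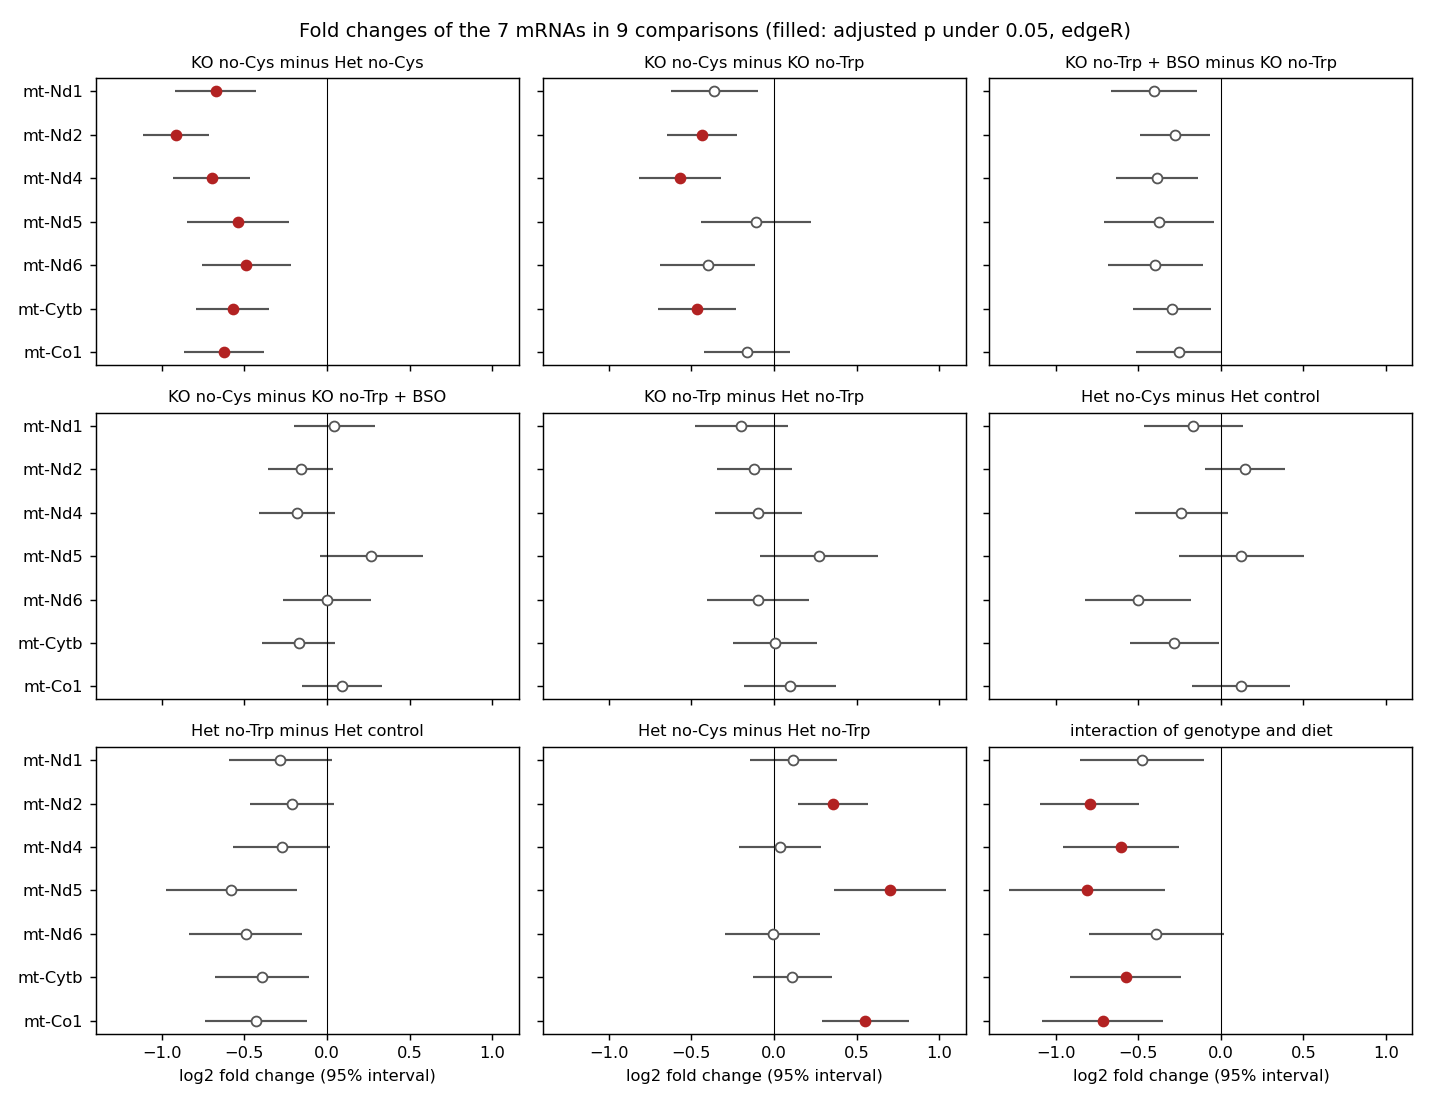
Log2 fold change of each mRNA in the 9 comparisons, with its 95% interval. Filled points passed an adjusted p of 0.05 by edgeR's quasi-likelihood test. All 7 are filled and negative for KO no-Cys minus Het no-Cys, 5 for the interaction of genotype and diet, and none for KO no-Cys minus KO no-Trp + BSO.

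The genotypes were also compared on the no-Trp diet, which supplies cysteine. Between Cse-/- and Cse+/- livers on the no-Trp diet, 0 of 7 mRNAs passed the test by edgeR or DESeq2 and 0 had an unadjusted p below 0.05, and 2.64% of all genes passed. Fold changes ran from -0.20 for mt-Nd1 to 0.27 for mt-Nd5, with 4 negative. mt-Cytb, with 10756, 9769 and 9529.7 CPM in Cse+/- no-Trp livers, differed by 0.0056 (95% interval -0.25 to 0.26).

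In Cse+/- mice the diets were compared with the control diet, of which there were 2 livers. On the no-Cys diet, 0 of 7 mRNAs passed (2.18% of all genes did) and 2 had an unadjusted p below 0.05 (edgeR). These were mt-Nd6 and mt-Cytb, with fold changes of -0.50 ± 0.15 and -0.28 ± 0.13. By p they ranked 656 and 2183 among the 14759 genes tested. Both were lower without overlap, as were 12.4% of all genes. DESeq2 called mt-Nd6, and its own share of all genes is not given here. mt-Nd6 was at 1940.1 and 2218 CPM in the control livers, above each of the 4 no-Cys livers. mt-Co1, by contrast, was slightly lower in the control livers (15812 and 16127 CPM) than in the lowest no-Cys liver, and 13.2% of all genes were likewise higher without overlap on the no-Cys diet. The hepatocyte sum was lower without overlap on the no-Cys diet (84926 to 109204 against 110319 and 111735 CPM), with 0 of 7 markers called. Of the cholangiocyte markers 1 of 4 was called lower, and the part of these shifts was not tested. On the no-Trp diet all 7 mRNAs were lower without overlap than in the control livers, as were 14.6% of all genes and the hepatocyte sum given above, and 0 passed the test, where 0.0474% of all genes did. 4 had an unadjusted p below 0.05 (edgeR), at ranks 285 to 380 by p among the 14759 genes tested, and DESeq2 called 0. mt-Nd5 had 2715, 2333 and 1972 CPM on the no-Trp diet and 3486 and 3505 CPM on the control diet, a fold change of -0.58 ± 0.19 (adjusted p = 0.324, edgeR). The smallest was that of mt-Nd2, -0.21 ± 0.12.

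Between the no-Cys and no-Trp diets in Cse+/- livers, 3 of 7 mRNAs were higher on the no-Cys diet, beside 8.04% of all genes in either direction and 4.63% that were higher. mt-Nd5 rose by 0.70 ± 0.16 (adjusted p = 0.0127), mt-Co1 by 0.55 ± 0.13 (adjusted p = 0.0118) and mt-Nd2 by 0.36 ± 0.10 (adjusted p = 0.0365) on the log2 scale by edgeR. mt-Co1 had 12898, 12028 and 10598 CPM on the no-Trp diet, below each of the no-Cys livers. The 3 called mRNAs did not overlap between the diets, a pattern shown in the higher direction by 10.5% of all genes. The other 4 differed by -0.0079 to 0.12, and none of them passed. Of the markers, 2 of 5 for endothelial cells were called lower here, and their part was not tested. The calls rest on few livers, as 0 passed without the no-Trp liver of mouse av20 and 2 without any one of mice av01, av02, av04, av17 and av19, with mt-Nd2 the one lost.

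The interaction of genotype and diet asks whether the no-Cys diet, relative to the no-Trp diet, acted differently in the 2 genotypes. It was negative for 7 of 7 mRNAs and passed the test for 5, where 4.36% of all genes passed and 2.69% were negative. The 5 were mt-Nd2 (-0.79 ± 0.14, adjusted p = 0.00423), mt-Co1 (-0.72 ± 0.18, adjusted p = 0.0252), mt-Nd4 (-0.61 ± 0.17, adjusted p = 0.0465), mt-Nd5 (-0.81 ± 0.23, adjusted p = 0.0473) and mt-Cytb (-0.58 ± 0.16, adjusted p = 0.0477), by edgeR. mt-Nd1 (-0.48) and mt-Nd6 (-0.39) did not pass. The interaction was also called negative for 2 of 7 hepatocyte and 1 of 5 red cell markers and positive for 1 of 2 nuclear-retained RNAs and 1 of 5 endothelial markers, and the part of this was not tested. For mt-Nd5 and mt-Co1 the no-Cys diet went with more mRNA in Cse+/- livers and with fold changes of -0.11 and -0.16 in Cse-/- livers. For mt-Nd4 and mt-Cytb the Cse+/- livers differed by 0.036 and 0.11 between the diets and the Cse-/- livers by -0.57 and -0.47. The count of calls was 1 without mouse av05, av07, av15 or av20, 2 without av01, av02, av06 or av19, and 3 without av04, av14 or av17. It was also 3 with library totals alone, where the share of all calls that were positive moved from 38.3% to 62.6%, and 1 when only these 4 groups were fitted.

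Ratios within a library do not depend on the scaling between libraries. Those with mt-Nd6 compare the counts of the genes, since the 2 strands cannot be told apart in these libraries. The log2 ratio of mt-Nd6 to the sum of the 6 heavy-strand mRNAs was -4.92 ± 0.14 (SD, n = 4) in Cse-/- no-Cys livers and -5.09 ± 0.11 (n = 4) in Cse+/- no-Cys livers, and the groups overlapped (-5.11 to -4.80 against -5.24 to -5.00). Its mean was highest in the 2 control livers, at -4.63 (-4.68 and -4.58). mt-Co1 against the 5 complex I mRNAs was at -0.33 ± 0.19 in Cse-/- no-Cys livers and -0.42 ± 0.13 in Cse+/- no-Cys livers, with overlap. mt-Cytb against the 5 complex I mRNAs was at -0.96 ± 0.043 and -1.10 ± 0.057 in these groups, which overlapped between -1.03 and -1.02. None of these 3 ratios separated the 2 groups. The ratio of the 2 mitochondrial rRNAs to the 7 mRNAs did so barely, at -4.24 to -3.433 in Cse-/- no-Cys livers and -3.431 to -2.82 in Cse+/- no-Cys livers. The ratio of mt-Nd5 to its neighbour mt-Nd4 ran from a mean of -0.84 ± 0.23 (n = 3) in Cse+/- no-Trp livers to 0.0062 ± 0.17 (n = 4) in Cse-/- no-Cys livers.

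**Figure D4:**
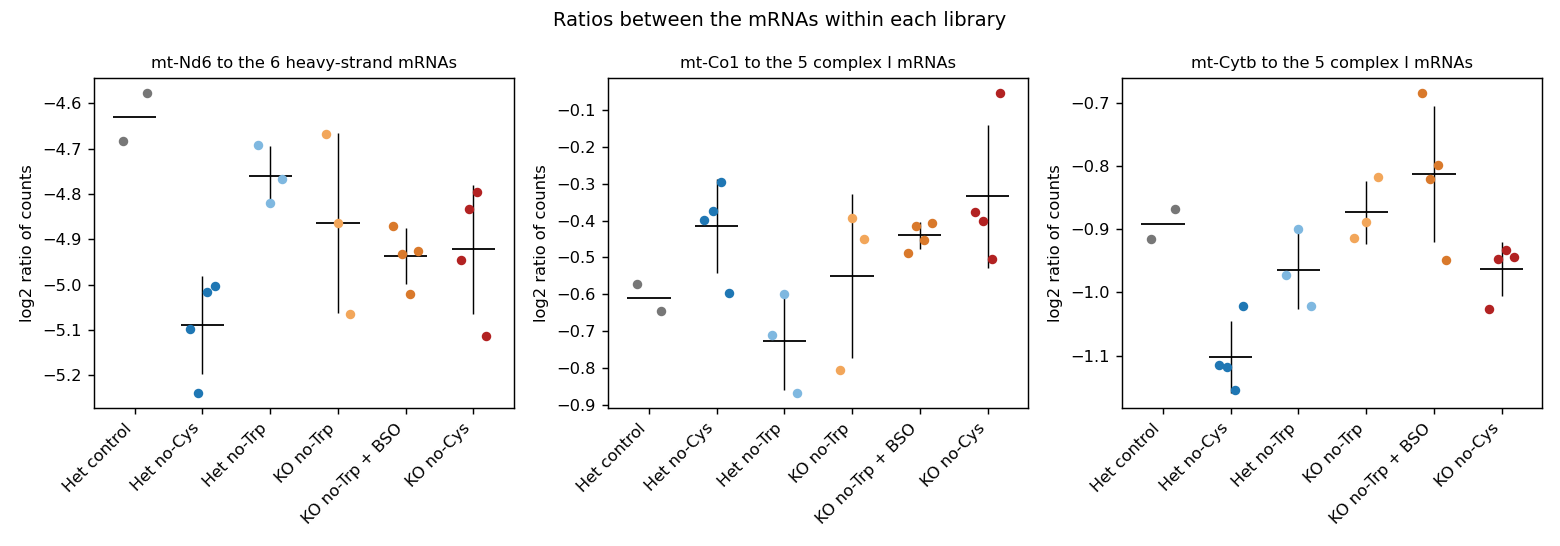
Log2 ratios of counts within each library: mt-Nd6 to the 6 heavy-strand mRNAs, mt-Co1 to the 5 complex I mRNAs and mt-Cytb to the 5 complex I mRNAs. Points are libraries, lines group means ± 1 SD (no SD for the 2 control livers). The ranges of the KO no-Cys and Het no-Cys libraries overlap in each panel.

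Across the 20 livers, log2 CPM of the 21 pairs of members correlated with a Pearson r of 0.49 to 0.96 (median 0.83). Around the group means r was 0.079 to 0.89 (median 0.75). All of these mRNAs come from the same libraries and share 1 scaling factor in each, so that these values are a description. mt-Nd5 followed the mean of the other 6 least closely (r = 0.68) and mt-Nd1 and mt-Nd2 most closely (r = 0.94 for each). mt-Nd5 did follow mt-Co1, with r of 0.93 over the livers and 0.86 around the group means. Around those means each of these correlated at only 0.079 to 0.36 with the remaining members. Of the 7832 nuclear genes with a mean of at least 10 CPM, the 4 most like the mean of the 7 over the 20 libraries were Ppa2, Fam213a, Cth and Prdx4, with r of 0.87 for Ppa2 and Fam213a and 0.86 for Cth and Prdx4. Ppa2, an inorganic pyrophosphatase of mitochondria, was at 43.7 ± 3.10 CPM in Cse+/- no-Cys livers and 32.8 ± 1.80 CPM in Cse-/- no-Cys livers. Prdx4, a peroxiredoxin of the endoplasmic reticulum, was at 98.2 ± 4.52 and 52.4 ± 6.60 CPM. Cth is the disrupted gene itself, so that its place in this list follows the genotype.

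The mitochondrial rRNAs, transcribed from the same heavy strand, are no targets of poly(A) selection but were counted in part. mt-Rnr1 was at 2522 ± 682 CPM in Cse+/- no-Cys livers and 1028 ± 248 CPM in Cse-/- no-Cys livers and changed by -1.29 ± 0.26 (adjusted p = 0.00139) on the log2 scale by edgeR. mt-Rnr2 was at 3406 ± 552 CPM in Cse+/- no-Cys livers and 1457 ± 238 CPM in Cse-/- no-Cys livers, a change of -1.22 ± 0.20 (adjusted p = 0.000288) by edgeR. Both fold changes were more negative than that of any of the 7 mRNAs, a difference that was not tested, and kept their sign under 4 other scalings (mt-Rnr1 -1.31 to -1.11, mt-Rnr2 -1.24 to -1.05). Together the rRNAs took 0.45% to 0.70% of counts in Cse+/- no-Cys livers and 0.18% to 0.32% in Cse-/- no-Cys livers. The 7 mRNAs took 4.62% to 5.25% and 3.30% to 3.71% in these groups. On the other diets the 7 mRNAs took 3.14% to 3.57% in Cse-/- livers with BSO, 3.69% to 4.57% in Cse-/- no-Trp livers, 3.84% to 4.26% in Cse+/- no-Trp livers, and 4.83% and 4.98% in the 2 control livers. The rRNA share was 0.46% to 0.78% in Cse+/- no-Trp livers and 0.20% to 0.49% in Cse-/- no-Trp livers, which overlapped.

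**Figure D5:**
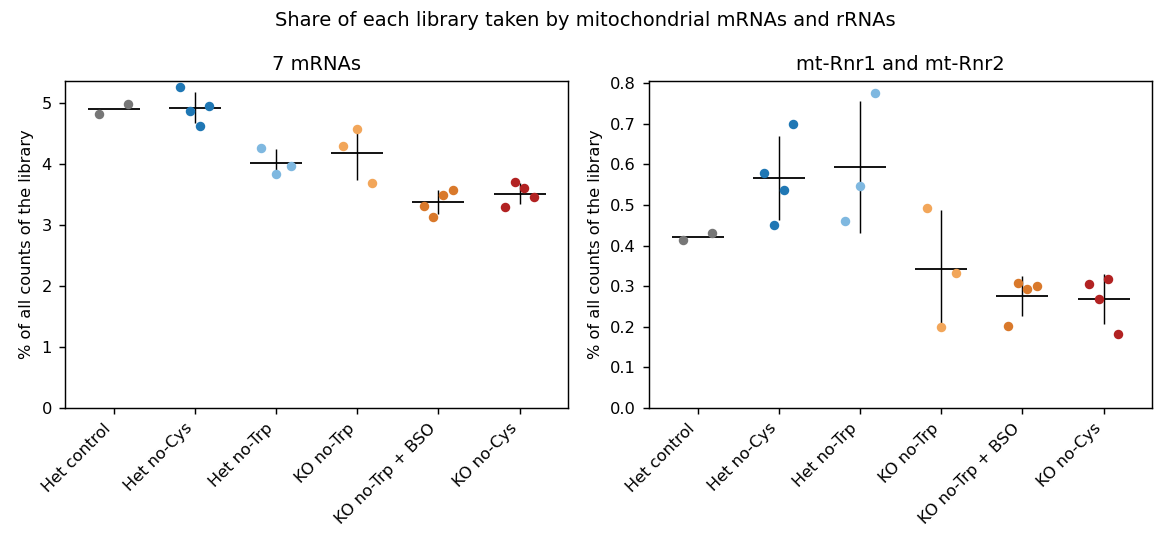
Percentage of all counts of each library taken by the 7 mRNAs (left) and by mt-Rnr1 and mt-Rnr2 (right). Points are libraries, lines group means ± 1 SD (no SD for the 2 control livers). In both panels the KO no-Cys libraries lie below the Het no-Cys libraries, 3.30% to 3.71% against 4.62% to 5.25% for the mRNAs.

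A list of 39 nuclear genes of mitochondrial genome expression covers transcription, RNA processing and stability, DNA replication and nuclear regulators. Of these 38 were tested, and in Cse-/- against Cse+/- no-Cys livers 10 rose and 0 fell, where 23.8% of all genes passed, 11.6% higher and 12.2% lower, and the median log2 fold change was 0.17 beside -0.0093 over all genes. Rexo2, an exonuclease of short RNA in mitochondria, was at 64.3 ± 5.64 CPM in Cse+/- no-Cys livers and 124 ± 20.2 CPM in Cse-/- no-Cys livers, a change of 0.95 ± 0.11 (adjusted p = 7.77e-06) by edgeR. Tfb1m, which methylates the small mitochondrial rRNA, changed by 0.91 ± 0.18 (adjusted p = 0.00113), and Twnk, the helicase of mitochondrial DNA replication, by 0.70 ± 0.13 (adjusted p = 0.000601). Fastkd2, an RNA-binding protein of mitochondrial RNA granules, changed by 0.57 ± 0.13 (adjusted p = 0.00271). The mitochondrial polymerase Polrmt (0.25 ± 0.12, adjusted p = 0.146) and the DNA-packaging transcription factor Tfam (0.069 ± 0.079, adjusted p = 0.569) did not pass by edgeR. With library totals alone, which moved the median of all genes to 0.15, 18 rose and 0 fell, and the median relative to that of all genes was 0.18 with either scaling.

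Of 56 nuclear-encoded partners in complexes I, III and IV, 12 fell and 0 rose in Cse-/- against Cse+/- no-Cys livers (6 of 36 in complex I, 3 of 9 in complex III and 3 of 11 in complex IV), with a median of -0.16. Over all genes 23.8% passed in either direction and 12.2% fell. The strongest in each complex, named after their values were seen, were Ndufa1 (-0.61 ± 0.14, adjusted p = 0.00328), Uqcr11 (-0.50 ± 0.14, adjusted p = 0.0122) and Cox6c (-0.61 ± 0.12, adjusted p = 0.00126), by edgeR. With library totals alone, which moved the median of all genes to 0.15, the median of the subunits was 0.010, and 2 fell and 4 rose. Relative to all genes the subunit median was -0.15 with TMM scaling and -0.14 with library totals. Against the Cse-/- no-Trp livers, 15 of 56 fell and 0 rose on the no-Cys diet (median -0.23), where 10.4% of all genes passed and 5.35% fell, and 6 fell and 0 rose with library totals alone. The 7 mitochondrial mRNAs had a larger median change than these subunits in the first comparison, -0.62 against -0.16, and the difference between the lists was not tested.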

How the data were processed

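Liver poly(A) RNA was sequenced as paired reads, and the authors deposited whole-number counts per gene, made with HISAT2 2.1.0, HTSeq 0.11.0 and GRCm38 per the labels. The library kit does not mark strand. The annotation release and the strand setting of the counting are not given in the sources used here. Columns carry mouse numbers, which were matched to groups through the study's list of mice, and 1 of 21 count columns was not used. Library totals were 11785740 to 57986121 counts. Counts were tested with edgeR 4.0.16 (R 4.3.3): filterByExpr with a minimum count of 10 and a minimum total of 15 left 14759 genes, with TMM factors and a quasi-likelihood test over all 6 groups, Benjamini-Hochberg adjustment and a threshold of 0.05. SEs were derived from the fold change and the F statistic. CPM used TMM-scaled totals. In a test on simulated data for Cse-/- against Cse+/- no-Cys livers (13101 genes), 187 of 197 changed genes were recovered, 89.8% of those changed 2-fold and 100% of those changed 4-fold, with 13 false calls. Each mouse gave a separate library. The p-values thus rest on the spread between mice together with that of library making and sequencing, estimated over all 6 groups.

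Nuclear copies were sought as 61-base words in GENCODE transcripts of GRCm38, since no genome sequence was used, so unannotated copies were not searched. Named genes were all 7 members, the 5 nuclear genes with the highest Pearson correlation with their mean (1 of which is not reported here), and, of the list of mitochondrial genome expression genes, at most the 4 called genes with the largest change in Cse-/- against Cse+/- no-Cys livers and with BSO. Genes named outside this rule were chosen after their values were seen or are the polymerase and its packaging factor. Members and gene lists were chosen with earlier results of these data known. Alternatives were RLE and upper-quartile factors, library totals, scaling by nuclear genes only, thinning to the shallowest library, no filter, a mean CPM of at least 1, an adjusted p under 0.01, a fit of the compared groups alone, DESeq2 1.42.0, each mouse left out, and words of 50 bases or with up to 2 mismatches.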

Additional observations from a re-analysis of the deposited data

Results flagged for a closer look

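A single outlying liver was looked for in 27 sets of values, which were several quantities in each of the 3 groups of 4 livers. Chance gives about 1 in 20 such sets, and 2 were found. In Cse-/- livers on the no-Trp diet with BSO, mt-Rnr1 and mt-Rnr2 took 0.202% of counts in mouse av09 and 0.292% to 0.307% in the other 3, a gap of 0.860 of the whole range. That library also had the most counts of all (57986121). In Cse-/- no-Cys livers, mt-Nd4 was at 2268.5 CPM in mouse av05 and at 2715 to 2756 CPM in the other 3, a gap of 0.915 of the range.

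The effect of genotype differed between the no-Cys and no-Trp diets, by edgeR's test of the interaction, for 5 mRNAs. The difference on the log2 scale was -0.79 for mt-Nd2, -0.81 for mt-Nd5, -0.72 for mt-Co1, -0.61 for mt-Nd4 and -0.58 for mt-Cytb. Apart from mt-Nd2, these calls were lost under at least 1 of the alternatives given next.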

How the results depend on the processing

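No paired analysis was possible because the count columns carry mouse numbers and not the replicate numbers of the labels. The number of mRNAs that passed, out of 7, was 6 to 7 for Cse-/- against Cse+/- no-Cys livers when each mouse was left out, and 6 at an adjusted p under 0.01 or with library totals. For Cse-/- livers on the no-Cys against the no-Trp diet, where 3 passed, it was 1 to 5 with each mouse left out, 1 at an adjusted p under 0.01, 0 with only the groups compared and 5 with DESeq2. For BSO on the no-Trp diet it was 0 to 1 with each mouse left out and 2 with DESeq2, and for Cse+/- no-Cys against control livers 1 with DESeq2. For Cse+/- livers on the no-Cys against the no-Trp diet it was 0 to 3 with each mouse left out, 0 at an adjusted p under 0.01, and 2, without mt-Nd2, with no filter or with only the groups compared. The interaction gave 1 to 5 with each mouse left out, 3 with upper-quartile factors, library totals or no filter, and 1 at an adjusted p under 0.01 or with only the groups compared. The shares of all genes that passed under these alternatives are not given here, and the cause of these shifts was not tested.

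Signs turned only for fold changes that had not passed. For mt-Nd6, Cse-/- no-Cys minus no-Trp with BSO (-0.0021), the value was 0.0058 with RLE factors and with DESeq2, 0.0061 with upper-quartile factors, 0.080 with library totals, 0.0011 with only the groups compared, and -0.054 to 0.044 with a mouse left out. For mt-Cytb, Cse-/- minus Cse+/- on the no-Trp diet (0.0056), it was -0.0073 with upper-quartile factors, -0.0019 with a mean CPM of at least 1, and -0.052 to 0.090 with a mouse left out. With each mouse left out, signs also turned for mt-Nd5 (-0.23 to 0.11, Cse-/- no-Cys minus no-Trp) and mt-Nd1 (-0.015 to 0.11, Cse-/- no-Cys minus BSO). Between genotypes on the no-Trp diet they turned for mt-Nd4 (-0.22 to 0.024), mt-Nd6 (-0.22 to 0.072) and mt-Co1 (-0.063 to 0.16). In Cse+/- livers they turned for mt-Nd5 (-0.0027 to 0.20, no-Cys minus control), mt-Nd4 (-0.023 to 0.11) and mt-Nd6 (-0.060 to 0.089, both no-Cys minus no-Trp).

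Scalings of the nuclear gene lists were added after seeing the data. Library totals alone moved the median of all genes to 0.15 in the first comparison and to 0.069 against Cse-/- no-Trp livers, and counts of calls moved with it, while each list's median relative to all genes moved by less than 0.01. Genes of mitochondrial genome expression that rose went from 10 to 18 in the first comparison, and against Cse-/- no-Trp livers from 2 to 5, with those that fell going from 2 to 0. Nuclear subunits that fell went from 12 to 2 and those that rose from 0 to 4 in the first comparison, and those that fell from 15 to 6 against Cse-/- no-Trp livers. The lowest count of a member was 12989, and groups held 2 to 4 mice.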
